A study of Mus musculus with 13 samples.

Results

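The 45 genes described here are type I interferon-stimulated genes (ISGs), taken as a named list and followed through a single-cell RNA-sequencing (scRNA-seq) atlas of mouse liver. All 45 were found among the 55353 genes of the deposited count matrices. No measured value entered the choice of a gene, but the list was drawn up with earlier results of these data known. The atlas holds 12 droplet libraries of livers from male C57BL/6J mice, taken before (D0, steady-state) or at D3, D5, D9, D19 and D25 of chow containing 0.1% of the porphyrinogenic compound 3,5-diethoxycarbonyl-1,4-dihydrocollidine (DDC), which causes cholestasis and ductular reaction. The mice were 6 to 12 weeks old and the labels name no engineered allele. Another library, STOP, came from mice fed DDC for 18 days and then normal chow for 7 days. The library named D19 with protocol B was taken on day 18 and was pooled with day 19 by the study. For the comparisons within the diet, D3 and D5 were grouped here as onset and D9, D19 and D25 as progression, a division that is not in the labels.

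Each diet day had 1 library from isolation protocol A and 1 from protocol B, and STOP was made by protocol B. Both start from collagenase digestion with magnetic enrichment and flow sorting. Protocol A collected live singlets, Cd45+ leukocytes, Lyve-1+, Pdpn+ and Epcam+ cells, Cd31+ Lyve-1- endothelium and retinoid-autofluorescent cells. Protocol B mixed live cells of a hepatic stellate cell preparation with Cd45+ Itgax+ Cd64-, Epcam+ and Cd3e+ Lyve-1- cells in equal ratios. The libraries are therefore sorted mixtures, and cell numbers are not tissue proportions. How many mice entered a library is not given in the sources used here, so the p-values below measure the spread between these libraries. The comparison of monocytes, which has only 2 libraries, is an exception described there.

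Type I interferons are secreted by cells that sense nucleic acids and bind the receptor Ifnar1/Ifnar2, whose kinases Jak1 and Tyk2 phosphorylate STAT proteins, Stat2 among them. Together with Irf9 these form the complex ISGF3, which binds interferon-stimulated response elements and switches on a large set of antiviral genes in almost any cell type. In healthy liver, continuous low interferon signalling keeps many of these genes transcribed, with Kupffer cells (KC), the resident macrophages of the sinusoids, and liver sinusoidal endothelial cells (LSEC) among the cells that filter gut-derived material from portal blood.

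The element that ISGF3 recognises can be read in the reference sequence next to several members. RefSeq promoter windows of build GRCm38.p6, from 250 bases before to 50 bases after a transcript start, were found for 32 of the 45 members. The letters GAAANNGAAA, searched on both strands, occurred in the windows of 16 of these 32 members (50%), against 3.99% of all 27025 genes with a window. In 13 of the 16 a match lay wholly upstream of the start. The letters TTCNNNGAA, a pattern bound by dimers of STAT proteins, occurred in 6 of the 32 members (18.8%), against 9.55% of all genes. A match describes the sequence alone and not the binding of a factor. Shown are stretches for 8 members whose levels are described below, each read 5′ to 3′ on the strand of its gene, with the matches to GAAANNGAAA or its reverse complement in capitals, where overlapping matches form 1 run. They lie at chr4:156200862-156200911 (minus strand) for Isg15, chr19:34640770-34640819 (plus) for Ifit1, chr19:34583358-34583421 (plus) for Ifit3, chr5:120777700-120777749 (minus) for Oas3, chr12:26456538-26456587 (minus) for Rsad2, chr8:71537568-71537617 (minus) for Bst2, chr14:59341346-59341395 (minus) for Phf11b and chr7:104465195-104465244 (minus) for Trim30a.
Isg15: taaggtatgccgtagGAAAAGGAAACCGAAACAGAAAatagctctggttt
Ifit1: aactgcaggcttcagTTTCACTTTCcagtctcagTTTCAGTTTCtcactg
Ifit3: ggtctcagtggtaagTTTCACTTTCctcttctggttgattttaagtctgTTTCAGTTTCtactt
Oas3: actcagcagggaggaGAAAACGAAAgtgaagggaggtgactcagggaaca
Rsad2: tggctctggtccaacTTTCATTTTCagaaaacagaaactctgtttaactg
Bst2: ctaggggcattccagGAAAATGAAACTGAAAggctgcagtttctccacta
Phf11b: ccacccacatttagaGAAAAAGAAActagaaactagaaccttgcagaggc
Trim30a: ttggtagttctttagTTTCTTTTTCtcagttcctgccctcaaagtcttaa
Isg15 carried 3 overlapping matches within the bases from -93 to -44 relative to its start, whereas Ifit1 and Ifit3 each carried 2 separate ones. In the stretches shown for Phf11b and Trim30a, which hold 1 match each, it lay closer to the start, within the bases from -65 to -16 and from -51 to -2. Trim30a had another match just after the transcript start in its second RefSeq window, which is not shown.

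Across the 13 libraries, 95563 barcodes with at least 1500 unique molecular identifiers (UMIs) were kept, 87083 of them in the atlas. Libraries held 1541 to 14764 cells and 29307190 to 108602421 UMIs, and at most 49 barcodes were shared between any pair of libraries. Cells were clustered without the members and without other interferon-induced genes, and clusters were named "X-like" from marker genes. The 16076 cells of 71 clusters that met no naming rule stayed unnamed. Scrublet called 7.76% of all cells doublets; these were kept and their removal is among the alternatives. The endothelial clusters with LSEC markers in D0 protocol A stood apart, since 6 clusters made up to at least 80% of that library held 1311 of its 1982 LSEC-like cells (66.1%). In D0 protocol B, clusters of this kind held 69.6% of cDC1-like and 61.9% of cDC2-like cells.

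Levels are given as CPM, the UMIs of a gene in a cell type of a library divided by all UMIs there and multiplied by 1e6. These are 3′ tags, so CPM are not divided by transcript length. The most abundant members differed between cell types. Ly6e, a lipid-anchored surface protein that restricts virus entry, averaged 1915 CPM over the atlas libraries in pDC-like cells, 1480 CPM in KC-like, 1134 CPM in biliary epithelial cell (BEC)-like, 860 CPM in NK-like, 849 CPM in T-like and 252 CPM in hepatocyte-like cells. Bst2 (tetherin), which holds budding virus at the cell surface, led in pDC-like cells with 3450 CPM and in LSEC-like cells with 736 CPM. Ifi27l2a, a small membrane protein induced by interferon, led in other macrophage-like cells with 831 CPM and in classical monocyte-like cells with 1075 CPM. Epsti1 led in mature DC-like cells with 779 CPM.

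The remaining highest members marked smaller differences. Slfn5, a schlafen family nuclear protein, reached 414 CPM in LSEC-like cells and was second there after Bst2. Samhd1, which hydrolyses deoxynucleotides, had means of 748 CPM in nonclassical monocyte-like, 613 CPM in classical monocyte-like and 391 CPM in neutrophil-like cells. Usp18, the protease that removes Isg15 from proteins and blocks signalling at Ifnar2, stood last or near last among the members, with means of 2.60 CPM in KC-like, 2.16 CPM in other macrophage-like and 0.551 CPM in neutrophil-like cells. At such levels few cells of a library hold a UMI of Usp18, and its values carry a large counting error.

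**Figure D1:**
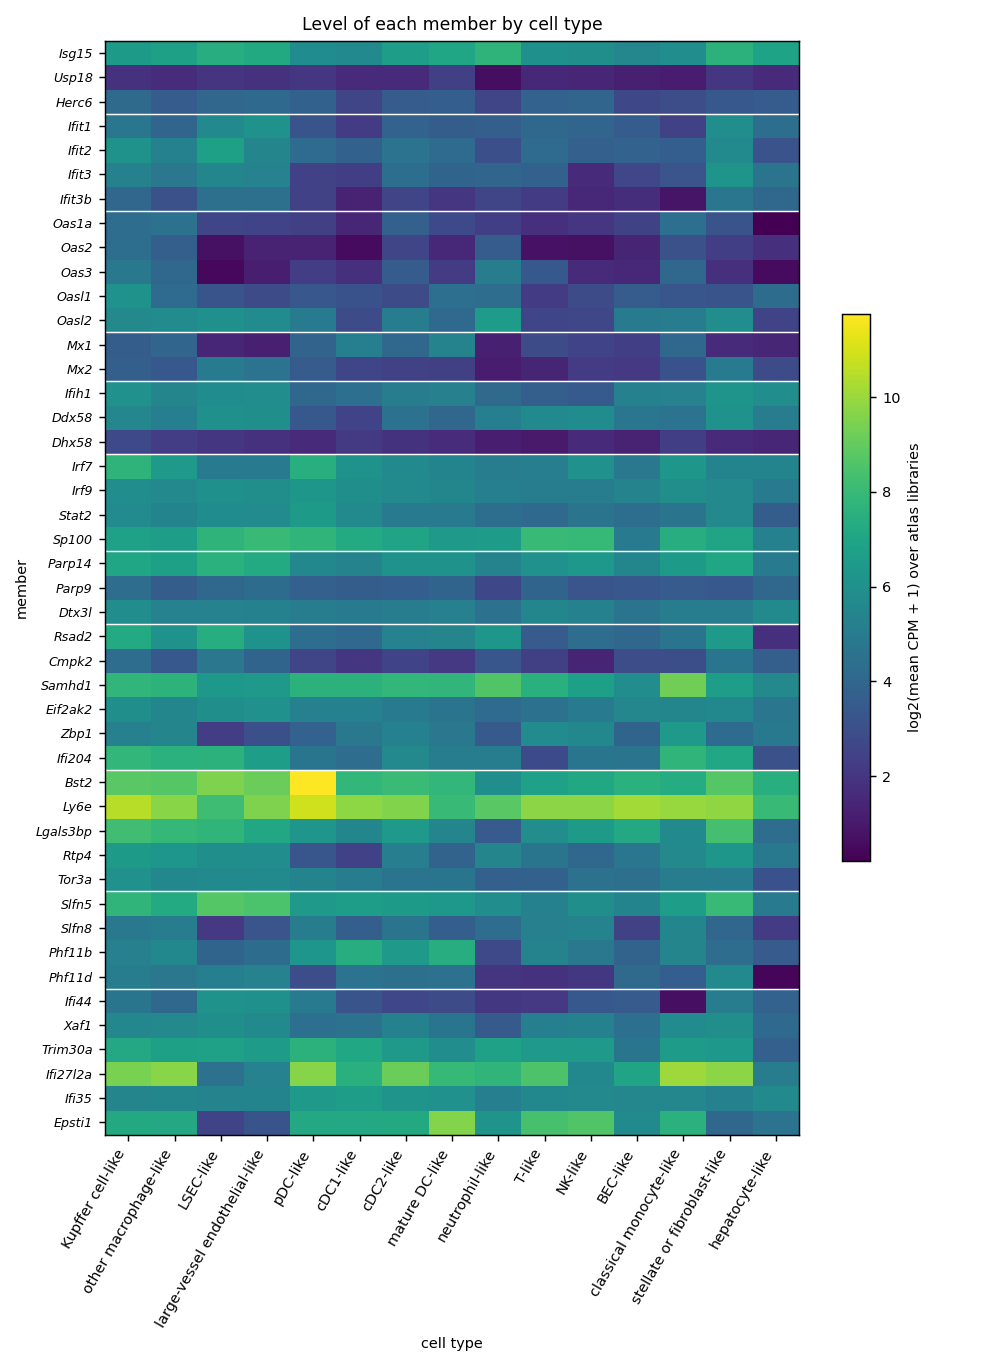
Colour gives the mean level of each member (vertical axis, grouped by role with white lines) in each cell type (horizontal axis) as log2(mean CPM + 1) over the atlas libraries. Bst2 in pDC-like cells (3450 CPM) and Ly6e in most cell types are the brightest fields, while Usp18 and Dhx58 are among the darkest.

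The UMIs of all 45 members were summed as a share of all UMIs of a cell type in a library. In KC-like cells the share was 0.970% in D0 protocol A and 0.714% in D0 protocol B, and it ran from 0.364% to 0.636% with a median of 0.509% in the 10 DDC libraries. In LSEC-like cells it was 0.648% and 0.521% at D0 and from 0.232% to 0.454% (median 0.354%) under DDC. In other macrophage-like cells it was 0.775% and 0.598% at D0 and from 0.284% to 0.598% (median 0.377%) under DDC. The highest DDC value there, D3 protocol B, was level with D0 protocol B. Both D0 libraries lay above all DDC libraries in 3 of the 11 cell types with both D0 libraries, the KC-like, LSEC-like and nonclassical monocyte-like cells. The nonclassical monocyte-like cells had only 2 DDC libraries, D9 and D25 of protocol A, with 34 and 29 cells. Within the diet, 11 cell types had at least 3 onset and 4 progression libraries, and all onset libraries lay above all progression libraries in 3 of them, the other macrophage-like, cDC1-like and large-vessel endothelial-like cells. Of the types with fewer libraries, BEC-like, B-like and stellate or fibroblast-like cells had the same order, as did the single onset library of classical monocyte-like cells.

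The size of the difference varied between cell types, and differences between cell types were not tested. The ratio of the mean DDC share to the mean D0 share was 0.504 in neutrophil-like, 0.583 in other macrophage-like, 0.602 in LSEC-like and 0.615 in KC-like cells. The ratio was 0.572 in nonclassical monocyte-like cells, which had 2 DDC libraries and no onset library. It was 0.670 in cDC2-like, 0.723 in cDC1-like, 0.724 in T-like, 0.784 in pDC-like and 0.855 in B-like cells. NK-like cells had a ratio of 1.05, with 0.267% and 0.272% at D0 and 0.204% to 0.334% under DDC. Without the abundant members Ly6e, Bst2 and Ifi27l2a their ratio was 0.865.

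Within protocol A and within protocol B, each of the 5 DDC libraries lay below the D0 library of the same protocol in KC-like and LSEC-like cells. All 5 neutrophil-like DDC libraries of protocol A and all 4 of protocol B did so too. For T-like, cDC1-like, cDC2-like and other macrophage-like cells it was 5 of 5 in protocol A and 4 of 5 in protocol B. For pDC-like cells it was 3 of 3 and 4 of 5. In NK-like cells 2 of 4 DDC libraries did so in protocol A and 0 of 4 in protocol B. Cell types with a single D0 library had the same order of values in part. Large-vessel endothelial-like cells had 0.618% in D0 protocol A and 0.236% to 0.482% under DDC, stellate or fibroblast-like cells 0.741% and 0.285% to 0.577%, and BEC-like cells 0.280% and 0.188% to 0.352%.

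**Figure D2:**
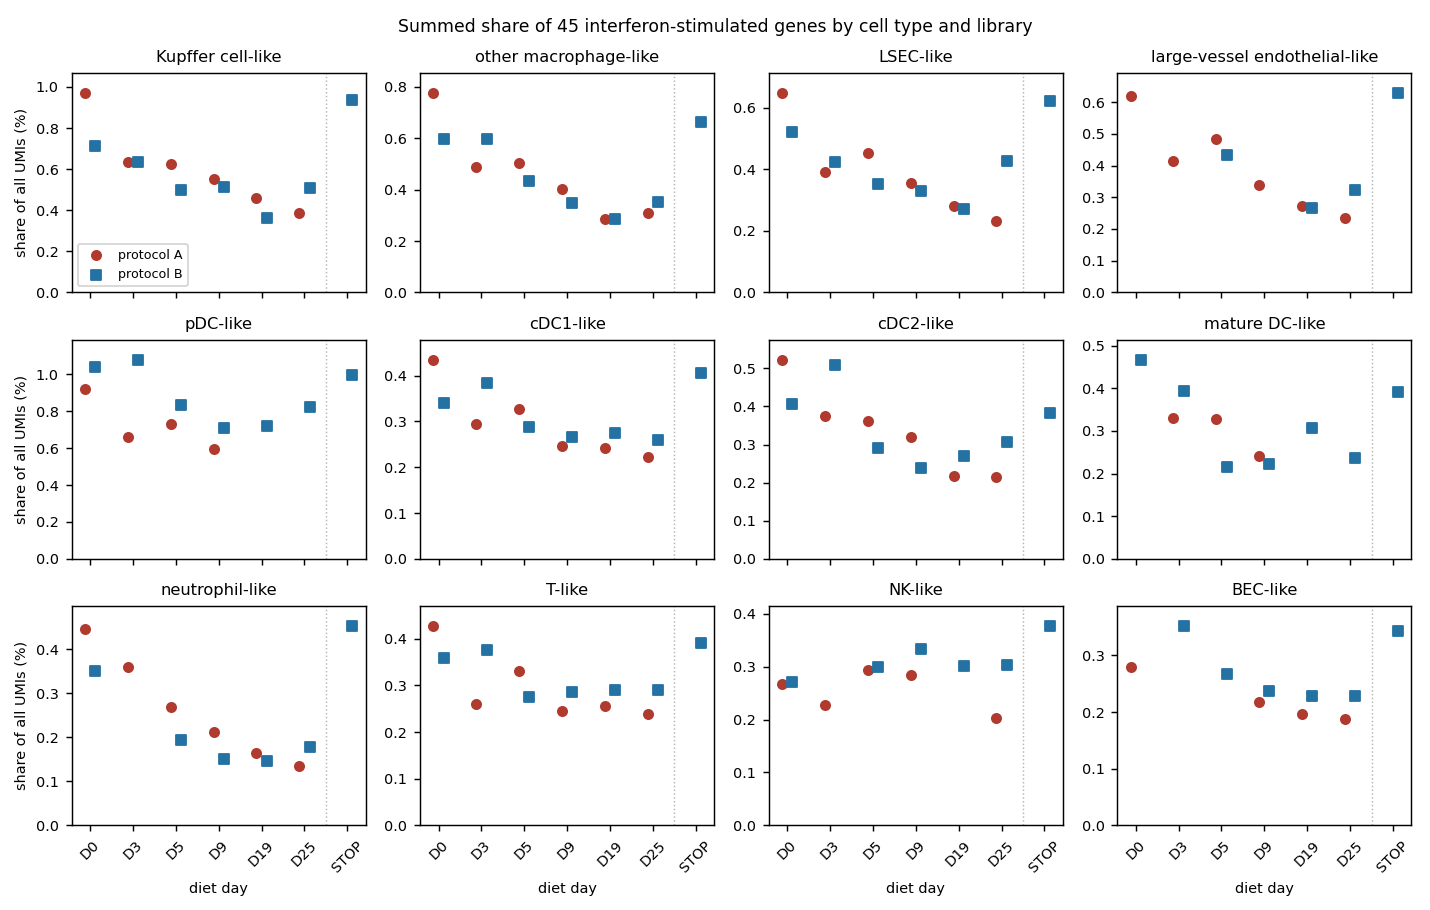
Each point is the summed share of the 45 members in percent of all UMIs of a cell type (vertical axis, starting at 0) in 1 library, by diet day (horizontal axis), with red circles for protocol A and blue squares for protocol B and STOP right of the dotted line. In KC-like, other macrophage-like and LSEC-like cells the D0 and STOP values are among the highest, and in NK-like cells the values show no such order.

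Other properties of the libraries were set beside the share. In barcodes with fewer than 100 UMIs, which hold free RNA, the member share was 0.504% and 0.445% at D0, 0.346% to 0.523% at onset, 0.257% to 0.343% in progression and 0.425% in STOP. The share of hepatocyte marker genes there was 0.269% and 0.0516% at D0, 0.0352% to 0.128% under DDC and 0.516% in STOP. In KC-like cells the hepatocyte marker share was 0.0815% and 0.0164% at D0, 0.00444% to 0.0466% under DDC and 0.0208% in STOP. Median UMIs per cell were 3025 to 4795 at D0 and 6011 to 15926 under DDC in KC-like cells, and 2204 to 3018 against 3985 to 9384 in LSEC-like cells. In STOP they were 7777 in KC-like and 5171 in LSEC-like cells. The share of UMIs from mitochondrial genes was 1.12% to 3.76% at D0, 2.74% to 4.73% under DDC and 1.97% in STOP in KC-like cells, and 1.49% to 4.20%, 3.31% to 6.87% and 2.77% in LSEC-like cells. Over all cells of a library it was highest in D25 protocol A, at 8.20%, which also had the lowest member share over all cells, at 0.236%. Hspa1b, a chaperone of the heat-shock response, stood at 2470 CPM in D0 protocol A, 688 CPM in D0 protocol B and 10.6 to 462 CPM under DDC in KC-like cells. In LSEC-like cells Hspa1b stood at 2748, 349 and 14.7 to 925 CPM, and in other macrophage-like cells at 4047, 389 and 4.84 to 374 CPM. The STOP library had Hspa1b at 104 CPM in KC-like, 265 CPM in LSEC-like and 69.7 CPM in other macrophage-like cells. What part these properties have in the member levels was not tested, and STOP is 1 library. In D0 protocol A, the LSEC-like clusters that stood apart had a member share of 0.673%, and the other 671 LSEC-like cells had 0.595%. In D0 protocol B, the cDC1-like cluster that stood apart had 0.352% and the other cDC1-like cells 0.323%, whereas the cDC2-like cluster had 0.375% and the other cDC2-like cells 0.441%.

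The values per cell had the same order. After thinning every cell to 1500 UMIs, KC-like cells held a mean of 14 and 11.4 member UMIs per cell in the D0 libraries, 4.85 to 9.26 in the DDC libraries and 14.1 in STOP. LSEC-like cells held 9.33 and 7.74 at D0, 3.35 to 6.60 under DDC and 9.21 in STOP. The 10% of KC-like cells richest in members held 17.7% to 30.2% of the members' UMIs in each library. Of LSEC-like cells, 0.151% and 0% at D0 and 0.814% to 5.38% under DDC were without any member UMI at this depth.

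Steady-state and DDC libraries were then compared gene by gene in the 9 cell types with both D0 libraries and enough DDC libraries, by edgeR's quasi-likelihood test on UMIs summed per library with isolation protocol and stage as terms. Of 354 pairs of a member and a cell type, 16 were lower under DDC at an adjusted p under 0.05 and 0 were higher. Over all genes, 1.08% of 88839 pairs were called lower and 0.920% higher. Of the member pairs, 278 (78.5%) had a log2 fold change below 0, against 48.4% of all pairs, and the median log2 fold change was -0.47 for members and 0.02 for all genes. At an unadjusted p under 0.05, 105 member pairs were lower and 3 higher, against 8.32% and 8.43% of all pairs. DESeq2 called 32 lower and 1 higher, against 2.40% and 2.20% of the pairs to which it gave an adjusted p.

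These counts depend on the D0 libraries, of which there are only 2. Several of their sums rest on few cells, with 28 KC-like cells in D0 protocol B and 25 pDC-like, 26 cDC1-like and 38 cDC2-like cells in D0 protocol A. Where 1 of them is left out, a single D0 library remains, whose spread is assumed to be that of the other stages. Without D0 protocol B the number called lower was 2 of 347, where 0.430% of all pairs were called lower. Without D0 protocol A it was 32 of 363 (4.65% of all pairs), and without D9 protocol A it was 28 of 351 (1.43%). The number of calls thus moved in the same direction for members and for all genes.

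Other macrophage-like cells, named from C1q and other macrophage genes, had the most calls, with 9 of 45 members lower and 42 below 0. They pool 5 clusters and numbered 136 and 156 at D0 and 107 to 2287 per DDC library. Whether their mix of macrophage subsets changed with the diet was not tested. All genes were called lower at 3.62% in this type. At an unadjusted p under 0.05, 23 of 45 members were lower, against 9.46% of all genes. The median log2 fold change was -0.69, against 0.07 over all genes. In KC-like cells 3 of 45 members were lower (1.29% of all genes), 17 at an unadjusted p under 0.05 (7.64%), and 39 were below 0, with a median of -0.54. In cDC1-like cells 2 of 44 were lower (2.12%), 8 unadjusted (10.4%), with a median of -0.25.

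In pDC-like cells 1 of 38 members was lower (0.765% of all genes), 7 at an unadjusted p under 0.05 (9.90%) with 1 higher (9.14%), and the median was -0.41. In T-like cells 1 of 40 was lower (0.396%), 10 unadjusted (9.06%), with a median of -0.26. The members in cDC1-like and pDC-like cells thus had unadjusted counts of a share nearer to that of all genes than in the macrophages. No member was called in the remaining 4 types. In LSEC-like cells 0 of 43 passed (0.131% of all genes), while 18 were lower at an unadjusted p under 0.05 (5.75%), 38 were below 0, the median was -0.61 and DESeq2 called 2 lower (1.01%). In neutrophil-like cells 0 of 31 passed (0.216%), 11 were lower unadjusted (8.38%), all 31 were below 0 with a median of -0.96, and DESeq2 called 0 in either direction (1.23% of all genes lower and 0.442% higher). In cDC2-like cells 0 of 45 passed (0.150%), 9 were lower unadjusted (7.98%), the median was -0.34 and DESeq2 called 3 lower (1.99%). In NK-like cells 0 of 23 passed (0.0813%), 2 were lower and 2 higher unadjusted (4.69% and 4.33% of all genes), the median was -0.16, and DESeq2 called 0 lower and 1 higher (0.368% and 0.621%).

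By role, the ISG15 conjugation genes had the lowest values. All 21 of their pairs were below 0, with a median log2 fold change of -1.07 and 3 called. Isg15, a ubiquitin-like protein attached to other proteins, was below 0 in 9 of 9 cell types, with log2 fold changes from -2.61 to -0.43 and a median of -1.70. In other macrophage-like cells Isg15 stood at 146 and 415 CPM at D0 and at 20.8, 76.9 and 126 CPM (lowest, median and highest) under DDC. The groups did not overlap, and Isg15 fell by 1.89 on the log2 scale (SE 0.45, edgeR adjusted p = 0.0223). In T-like cells Isg15 stood at 76.1 and 253 CPM at D0 and at 13.5, 45 and 89.9 CPM under DDC. The groups overlapped there, since D0 protocol A lay within the DDC range, and the log2 fold change was -2.04 (SE 0.33, edgeR adjusted p = 0.00547).

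Isg15 did not pass in the other types in which it was high at D0. In LSEC-like cells it stood at 319 and 619 CPM at D0 and at 21.4, 93.9 and 314 CPM under DDC, without overlap. The highest DDC value was that of D25 protocol B and the lowest that of D25 protocol A, and the log2 fold change was -1.98 (SE 0.53, edgeR adjusted p = 0.15). In neutrophil-like cells Isg15 stood at 382 and 950 CPM at D0 and at 20, 126 and 242 CPM under DDC, again without overlap, with a log2 fold change of -2.61 (SE 0.65). In KC-like cells it stood at 174 and 115 CPM at D0 and at 16.4 to 174 CPM under DDC, so the groups overlapped. Herc6, the ligase that attaches Isg15 in the mouse, stood in other macrophage-like cells at 25.6 and 15.9 CPM at D0 and at 5.99, 7.99 and 14.7 CPM under DDC, and fell by 1.15 on the log2 scale (SE 0.26, edgeR adjusted p = 0.0190). Usp18 was at 2.63 and 8.19 CPM at D0 and at 0 to 6.23 CPM under DDC in KC-like cells. In LSEC-like cells Usp18 did not overlap, at 4.33 and 5.61 CPM at D0 against 0.776 to 3.94 CPM.

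The transcription factors and nuclear body genes had a median of -0.58, with 30 of 35 pairs below 0 and 4 called lower. Irf7, the factor that amplifies interferon transcription, accounted for 3 of these and was below 0 in 9 of 9 cell types, from -2.06 to -0.56. In pDC-like cells, the main producers of interferon-alpha, Irf7 stood at 343 and 506 CPM at D0 and at 66.0, 98.4 and 210 CPM in the 8 DDC libraries with enough cells. Both D0 values lay above all others, with a log2 fold change of -2.06 (SE 0.29, edgeR adjusted p = 0.00969). In other macrophage-like cells Irf7 stood at 168 and 175 CPM at D0 and at 32.1, 61.1 and 108 CPM under DDC, without overlap (log2 fold change -1.42, SE 0.29, edgeR adjusted p = 0.00955). In cDC1-like cells it stood at 74.1 and 167 CPM at D0 and at 37.0, 55.7 and 90.2 CPM under DDC, where D0 protocol A lay within the DDC range (-1.32, SE 0.30, edgeR adjusted p = 0.0178). The Irf7 values of cDC2-like cells, 87.4 and 128 CPM at D0 against 18 to 61.6 CPM, did not overlap but did not pass. Stat2, the interferon-specific subunit of ISGF3, stood in KC-like cells at 113 and 123 CPM at D0 and at 18.4, 37.1 and 71.1 CPM under DDC, and fell by 1.17 on the log2 scale (SE 0.28, edgeR adjusted p = 0.0368).

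The OAS family, whose enzymes make the 2′-5′ oligoadenylates that activate RNase L, had a median of -0.84, with 27 of 32 pairs below 0 and 2 called. Oas2 in KC-like cells stood at 51.4 and 49.2 CPM at D0 and at 6.23, 11.3 and 31.2 CPM under DDC, without overlap (log2 fold change -1.45, SE 0.34, edgeR adjusted p = 0.0373). Oas3 in other macrophage-like cells stood at 47.3 and 14.6 CPM at D0 and at 8.90, 13.4 and 19 CPM under DDC. The groups overlapped, and the call (-1.04, SE 0.29, edgeR adjusted p = 0.0478) was lost in 12 of 22 alternatives.

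None of the 28 pairs of the IFIT proteins, which bind viral RNA, was called, although 24 were below 0, with a median of -0.67. In LSEC-like cells Ifit3 stood at 71.8 and 106 CPM at D0 and at 12.3, 36.0 and 65.8 CPM under DDC, without overlap. Ifit1 stood there at 191 CPM in D0 protocol A but at 45.8 CPM in D0 protocol B, within the range of 8.16 to 79.2 CPM under DDC. In KC-like cells Ifit1 stood at 54.4 and 16.4 CPM at D0 and at 5.26 to 54.2 CPM under DDC, and Ifit3 at 48.8 and 8.19 CPM against 16.9 to 87.2 CPM. Both overlapped in these cells, and D0 protocol B was the lowest of all libraries for Ifit3. That library held only 28 KC-like cells, so its Ifit1 and Ifit3 values rest on few UMIs and carry a large counting error.

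Among the effectors acting on nucleotides and nucleic acids, 43 of 53 pairs were below 0, with a median of -0.33 and 1 call. Samhd1 in KC-like cells stood at 470 and 360 CPM at D0 and at 152, 193 and 224 CPM under DDC, without overlap, and fell by 0.97 on the log2 scale (SE 0.20, edgeR adjusted p = 0.0171). Rsad2 (viperin), which makes a chain-terminating nucleotide, was not called in any type. It stood in KC-like cells at 384 and 156 CPM at D0 and at 45.5, 84.8 and 333 CPM under DDC, and in LSEC-like cells at 354 and 116 CPM against 89.2, 144 and 244 CPM, with overlap in both.

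The membrane and secreted members had a median of -0.40, with 29 of 42 pairs below 0 and 2 called, both of them Ly6e. In other macrophage-like cells Ly6e stood at 1597 and 1193 CPM at D0 and at 463, 685 and 957 CPM under DDC, without overlap (log2 fold change -0.93, SE 0.19, edgeR adjusted p = 0.00832). In cDC1-like cells it stood at 1712 and 1307 CPM at D0 and at 537, 766 and 1078 CPM under DDC, also without overlap (-1.07, SE 0.21, edgeR adjusted p = 0.00861). In NK-like cells Ly6e had the opposite order, with 392 and 539 CPM at D0 and 457, 1037 and 1367 CPM under DDC. The groups overlapped and the log2 fold change of 1.02 (SE 0.32) did not pass (edgeR adjusted p = 0.23). Lgals3bp, a secreted glycoprotein, was below 0 in 1 of 9 cell types, with a median of 0.35.

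The schlafen and PHF11 genes had a median of -0.43, with 24 of 32 pairs below 0 and 2 called, both in other macrophage-like cells. Phf11b stood at 98.5 and 151 CPM at D0 and at 16.4, 33.1 and 57.1 CPM under DDC, without overlap, and fell by 1.91 on the log2 scale (SE 0.19, edgeR adjusted p = 8.97e-05). It kept its call in all 22 alternatives. Phf11d stood at 46.0 and 50.3 CPM against 13.6, 21.8 and 29.2 CPM, again without overlap (log2 fold change -1.10, SE 0.21, edgeR adjusted p = 0.00618). Phf11b and Phf11d are near copies, and reads shared between them could have been divided in the quantification.

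The remaining antiviral genes had a median of -0.53, with 46 of 51 pairs below 0 and 2 called, again in other macrophage-like cells. Xaf1 stood at 70.3 and 108 CPM at D0 and at 24.0, 38.5 and 61.2 CPM under DDC (log2 fold change -1.15, SE 0.26, edgeR adjusted p = 0.0164). Epsti1 stood at 203 and 234 CPM against 96.9, 130 and 163 CPM (-0.74, SE 0.16, edgeR adjusted p = 0.0147). Neither overlapped. The dynamin-like GTPases Mx1 and Mx2 had a median of -0.73 with 11 of 13 pairs below 0 and no call. The RNA sensors Ifih1, Ddx58 and Dhx58 had a median of 0.04 with 11 of 22 pairs below 0, and the ADP-ribosylation genes Parp14, Parp9 and Dtx3l a median of 0.05 with 12 of 25 below 0. These last groups stood near the value of all genes.

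**Figure D3:**
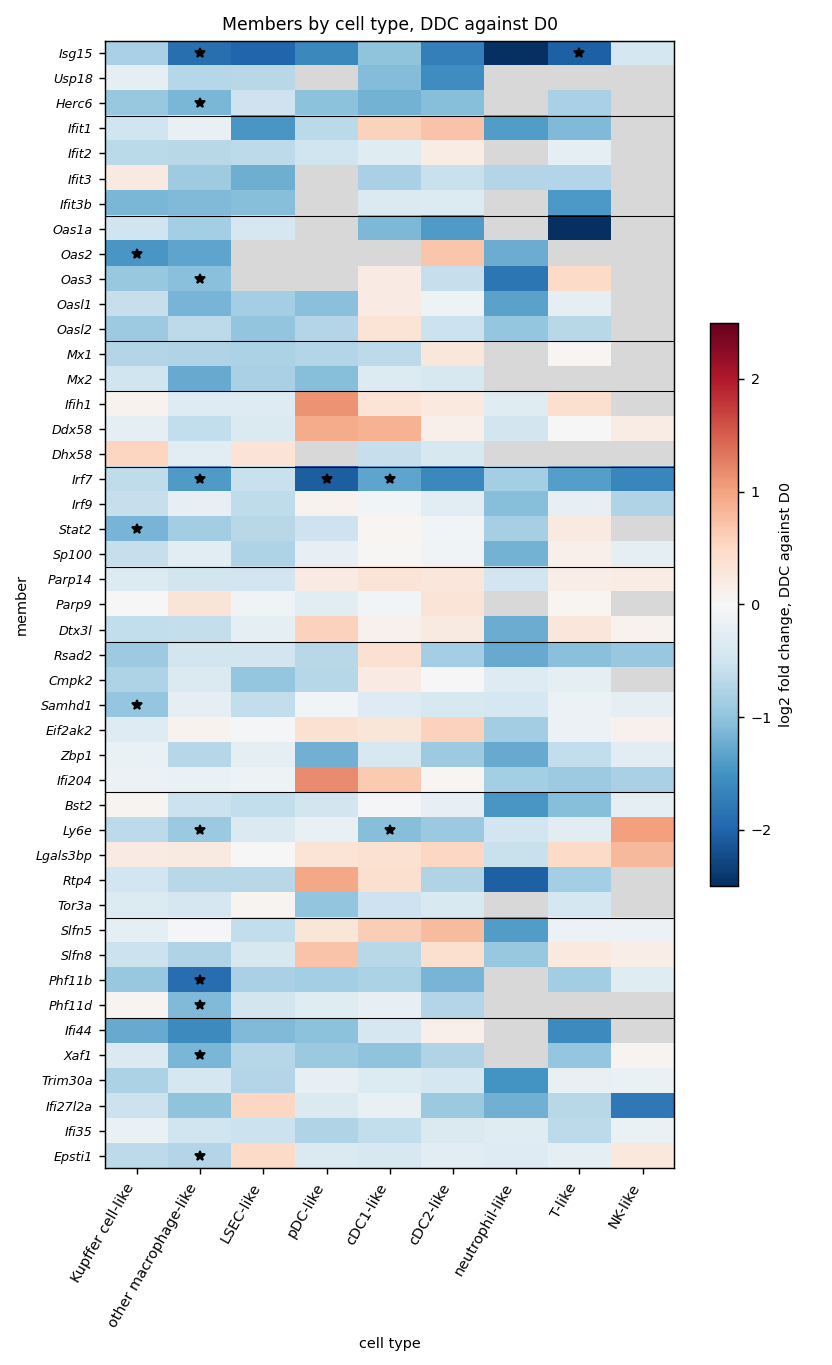
Colour gives the log2 fold change of each member (vertical axis, grouped by role) in each of 9 cell types (horizontal axis), DDC against D0, with blue for lower under DDC, grey for not tested and stars for an edgeR adjusted p under 0.05. Isg15 and Irf7 are blue in all 9 columns, and 9 of the 16 stars are in other macrophage-like cells.

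Of the 354 pairs, 40 had all DDC libraries below both D0 libraries and 0 had all above, against 3.69% and 4.07% of pairs of all genes. In KC-like cells 13 of 45 members, against 944 of 10553 genes, had all DDC libraries below, among them Oas1a, Oas2, Oas3, Mx2, Ifi44 and Stat2. In other macrophage-like cells they were 10 of 45, against 733 of 11623 genes, among them Irf7, Isg15, Zbp1 and Phf11b. In LSEC-like cells, where 383 of 12221 genes had this order, they were Ifit3, Irf7, Isg15, Phf11b, Phf11d and Usp18. cDC1-like and neutrophil-like cells had 3 each, against 255 of 11204 and 128 of 6028 genes, and T-like cells had 2 (Bst2 and Oas1a), against 170 of 10859 genes. NK-like, cDC2-like and pDC-like cells had only Irf7. This was 1 of 23, 1 of 45 and 1 of 38 members, against 131 of 4921, 247 of 12013 and 291 of 9417 genes, so that the members' share in cDC2-like and pDC-like cells was near or below that of all genes. Of the 45 members, 12 were below 0 in every cell type tested and 40 in most. The cell types share the same libraries, so their directions are not independent, and the same count over all genes is not given.

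The genes upstream of the members were followed as a list of 52 ligands, receptors, signalling proteins, sensors and inhibitors. Of the 21 ligand genes, 10 had no UMI in any cell. The 14 interferon-alpha genes together had 8 UMIs in the atlas and 2 in STOP. Ifnb1, encoding interferon-beta, had 143 UMIs in the atlas and 6 in STOP. Of the atlas UMIs, 66 were in other macrophage-like cells, and 75 came from D9 protocol A and 48 from D0 protocol B, while D0 protocol A and both libraries of D3 and D19 had 0. Ifng, the type II ligand, had 9323 UMIs in the atlas, 4882 of them in T-like cells, and 3884 in STOP. At this depth, changes of type I ligands with diet could not be assessed.

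The receptor subunits were detected in the cell types named next, while Ifnar2 had 0 CPM in NK-like cells of D25 protocol A. Ifnar1 ranged over 42.0 to 72.5 CPM in LSEC-like, 56.4 to 106 CPM in KC-like and 138 to 400 CPM in pDC-like libraries. Ifnar2 ranged over 23.0 to 115 CPM in LSEC-like and 61.6 to 180 CPM in KC-like libraries. Of 233 pairs of a pathway gene and a cell type, 4 were lower under DDC and 0 higher, a share of calls near the 1.08% and 0.920% of all pairs. At an unadjusted p under 0.05, 33 were lower and 27 higher (8.32% and 8.43% of all pairs), DESeq2 called 10 lower and 5 higher (2.40% and 2.20%), and the median log2 fold change was -0.07. Irf1, induced by both interferon types, stood in other macrophage-like cells at 228 and 185 CPM against 43.2, 62.7 and 157 CPM (-1.42, SE 0.31, edgeR adjusted p = 0.0131). Socs1, an inhibitor of Jak kinases, stood in pDC-like cells at 21.4 and 59.2 CPM against 7.50, 12.4 and 24.2 CPM (-2.14, SE 0.38, edgeR adjusted p = 0.0197).

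Within the diet, progression libraries were compared with onset libraries in 11 cell types by the same fit. Of 437 pairs, 389 (89%) had a log2 fold change below 0, against 50.2% of pairs of all genes. The median was -0.49 for members and -0.00 for all genes. Only 2 pairs were called lower and 0 higher, where 0.0246% of 109733 pairs of all genes were called lower and 0.0301% higher. At an unadjusted p under 0.05, 150 member pairs were lower and 2 higher, against 3.90% and 3.68% of all pairs, and DESeq2 called 19 lower and 0 higher, against 0.195% and 0.276%.

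Both calls were in large-vessel endothelial-like cells, which line portal and central veins. Irf7 stood there at 41.6, 47.1 and 68.2 CPM in the 3 onset libraries and at 12.1, 15.8 and 25.1 CPM (lowest, median and highest) in the 5 progression libraries, with 37.4 CPM in D0 protocol A. The groups did not overlap (log2 fold change -1.50, SE 0.28, edgeR adjusted p = 0.0456). Ifit3 stood at 32.1, 57.8 and 74.2 CPM at onset and at 15.5, 22.6 and 34 CPM in progression, and overlapped at D5 protocol B and D9 protocol A (-1.25, SE 0.22, edgeR adjusted p = 0.0409). The number called lower was 21 without D9 protocol A (0.324% of all pairs), 4 without D25 protocol B (0.0331%) and 3 without D0 protocol B (0.0252%). It was 1 without D19 protocol B (0.0252%), and 0 without either D0 protocol A, D3 protocol A, either D5 library, D19 protocol A or D25 protocol A (0.0102% to 0.0501%).

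At an unadjusted p under 0.05, 27 of 43 members were lower in large-vessel endothelial-like cells (2.82% of all genes there), 24 of 45 in other macrophage-like (7.43%), 19 of 43 in LSEC-like (3.89%), 17 of 31 in neutrophil-like (6.45%), 16 of 45 in KC-like (5.31%) and 15 of 44 in cDC1-like cells (3.94%). There were 11 of 40 in mature DC-like (3.12%), 9 of 45 in cDC2-like (3.11%), 8 of 38 in pDC-like (2.13%) and 4 of 40 in T-like cells (1.84%). NK-like cells had 0 of 23 lower and 2 higher, against 3.13% and 4.69% of all genes. Over cell types, which share the same libraries, 19 members were below 0 in every type tested and 43 in most. The same count over all genes is not given. Ifi44 and Ifi27l2a, singled out after their values were seen, had the lowest medians. Ifi44 was below 0 in 9 of 9 types with a median of -1.54, and Ifi27l2a in 11 of 11 types with a median of -1.11. Ifi27l2a in other macrophage-like cells stood at 846, 1052 and 1475 CPM (lowest, median and highest) at onset and at 271, 435 and 663 CPM in progression. The groups did not overlap, but the log2 fold change of -1.25 (SE 0.25) did not pass (edgeR adjusted p = 0.0593). In LSEC-like cells Ifit1 stood at 8.16 and 11.4 CPM in the D19 libraries and at 79.2 CPM in D25 protocol B, above all onset libraries. Of the pathway genes, 0 of 284 pairs were called in either direction, with 11 higher and 21 lower at an unadjusted p under 0.05 (3.68% and 3.90% of all pairs), and DESeq2 called 1 lower (0.195%) and 0 higher.

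**Figure D4:**
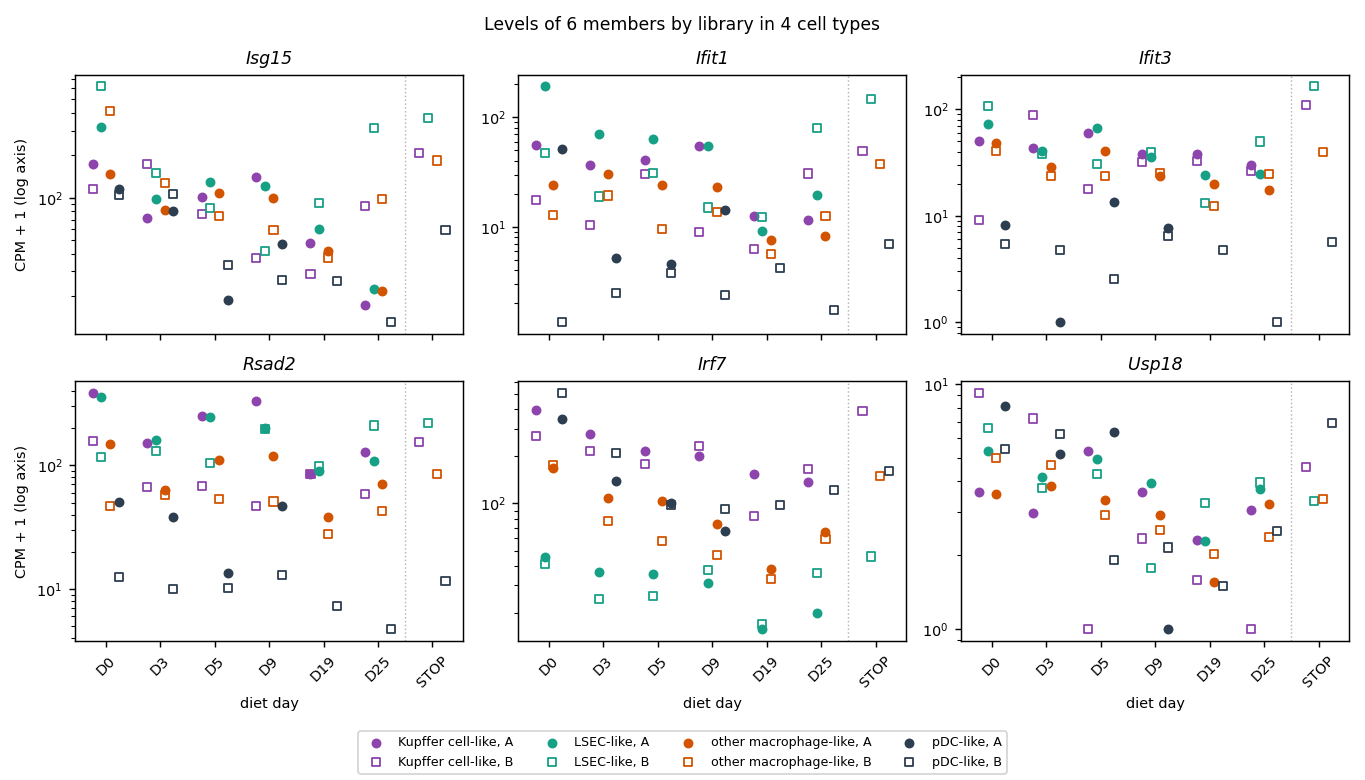
Each point is the level of a member in 1 library of a cell type as CPM + 1 on a log axis (vertical), by diet day (horizontal), with filled circles for protocol A, open squares for protocol B and STOP right of the dotted line. Isg15 and Irf7 are highest at D0 in most of the 4 types, Ifit1 and Rsad2 differ between the D0 libraries of protocols A and B, and Usp18 stays under 10 CPM.

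The isolation protocols also differed. Protocol B was compared with protocol A in the same fit over 437 pairs, and 18 were lower and 7 higher, where 2.82% and 1.46% of pairs of all genes were called. The median log2 fold change was -0.14, with 67 lower and 25 higher at an unadjusted p under 0.05 (8.95% and 8.25% of all pairs) and 30 lower and 6 higher by DESeq2 (4.16% and 2.43%). Rsad2 was called lower in 4 cell types. In KC-like cells it stood in protocol A at 384, 151, 250, 333, 84.8 and 128 CPM from D0 to D25 and in protocol B at 156, 65.4, 66.5, 45.5, 84.8 and 57.9 CPM. It was higher in protocol A on every day but D19, where both protocols had 84.8 CPM (log2 fold change -1.47, SE 0.27, edgeR adjusted p = 0.00391). In NK-like cells the log2 fold change of Rsad2 was -3.78 (SE 0.84, edgeR adjusted p = 0.00759), in pDC-like cells -1.85 and in other macrophage-like cells -0.84. The NK-like values in protocol A were highest at D0 (52.6 CPM) and D9 (96.1 CPM) and 0 to 14.9 CPM on the other days. In protocol B they were 0 to 12.7 CPM, so the ranges overlapped.

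Neutrophil-like cells had 7 of 31 members lower in protocol B, against 7.50% of all genes in that type. They were led by Oas3 with a log2 fold change of -2.42, Oasl1 with -2.41 and Lgals3bp with -2.34. In D19 protocol B, however, Oas3, Oasl1 and Lgals3bp had 0 UMIs in these cells. The D0, D5 and D9 libraries of protocol B held only 56, 44 and 49 neutrophil-like cells. The sizes of these fold changes thus carry a large counting error. In pDC-like cells Ifit1 (-2.70) and Ifit2 (-1.70) were lower, while Epsti1 (1.16), Ifi35 (1.09) and Bst2 (0.89) were higher. Slfn5 was lower in neutrophil-like (-1.18) and NK-like cells (-2.83), Mx2 in other macrophage-like cells (-1.06), and Cmpk2 (-0.95), Parp14 (-0.76) and Stat2 (-0.71) in KC-like cells. Isg15 in T-like cells (1.42), Ly6e in NK-like cells (0.92) and Phf11b (0.64) and Epsti1 (0.47) in other macrophage-like cells were higher. Of 284 pairs of pathway genes 4 were higher and 4 lower, against 1.46% and 2.82% of all pairs. Those higher were Ifng in cDC1-like (6.95), Socs1 in NK-like (1.16), Unc93b1 in other macrophage-like (0.52) and Irf5 in KC-like cells (0.51). Stat3 in neutrophil-like (-0.97), Irf8 in NK-like (-1.48) and Jak1 in other macrophage-like (-0.67) and pDC-like cells (-0.85) were lower. Atlas libraries of protocol B held 446 to 2146 T-like cells, and those of protocol A 26 to 72. Their Ifng UMIs numbered 407 to 2675 in protocol B and 22 to 325 in protocol A. Whether Ifng RNA of T-like cells entered the cDC1-like sums was not tested.

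The protocols differ in their sort gates and, per the labels, in the index kit of the libraries, and these cannot be told apart. The number of members lower was 4 without D9 protocol A (1.34% of all pairs) and 30 without D19 protocol A (3.67%). It was 8 without D3 protocol A or D25 protocol B, 9 without D19 protocol B and 10 without D5 protocol B (1.99% to 2.28%). The number higher was 3 without D9 protocol A or D25 protocol B, and 4 without D3 protocol A or D19 protocol B (0.630% to 0.947%).

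Cell types of the same library were compared with the library as a block, so that diet and protocol were shared. Between pDC-like and cDC2-like cells of 10 libraries, 8 of 45 members were higher in pDC-like cells and 25 lower, against 22.9% and 26.5% of 12416 genes. The median log2 fold change was -0.54 for members and -0.02 for all genes. Bst2, a marker of mouse pDC in the absence of stimulation, stood at 2129 to 5557 CPM in pDC-like and at 137 to 358 CPM in cDC2-like cells, without overlap (log2 fold change 3.35, SE 0.10). Ifi44 (1.92), Irf7 (1.35, SE 0.15), Stat2 (1.20), Ly6e (1.03), Trim30a (0.85), Sp100 (0.43) and Irf9 (0.27) were also higher. All 4 transcription factor and nuclear body members were thus higher in pDC-like cells. In contrast, all 4 IFIT genes, 4 of 5 OAS genes and 3 of 3 RNA sensors were lower. Rtp4, a chaperone of membrane receptors, stood at 1.70 to 29.2 CPM in pDC-like and 14.9 to 74.1 CPM in cDC2-like cells (log2 fold change -2.66, SE 0.25, edgeR adjusted p = 3.23e-08), followed by Oas2 (-2.58) and Ifit3 (-2.52).

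Of 31 pathway genes, 11 were higher in pDC-like cells and 9 lower, against 22.9% and 26.5% of all genes. The share lower was thus near that of all genes. Those higher were led by Irf8 (log2 fold change 3.87), Tlr7 (3.87), the endosomal sensor of single-stranded RNA, and Irf1 (1.37). The receptor subunits Ifnar1 (0.91) and Ifnar2 (0.85), Tlr9 (0.74), Ptpn6 (0.57), Unc93b1 (0.52), Stat3 (0.23) and Tmem173 (0.20), which encodes STING, were among the others. The 9 that were lower included Ifngr1 (-1.95), the DNA sensor Cgas (-1.78), the double-stranded RNA sensor Tlr3 (-1.35), Socs3 (-1.03) and Irf5 (-0.94), followed by Jak2 (-0.82), Irf2 (-0.66), Ifngr2 (-0.59) and Ticam1 (-0.48).

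Between LSEC-like and large-vessel endothelial-like cells of 9 libraries, 10 of 43 members were higher in LSEC-like cells and 6 lower, against 20.7% and 18.6% of 11538 genes. Rsad2 stood at 89.2 to 354 CPM in LSEC-like and 26.1 to 119 CPM in large-vessel endothelial-like cells (log2 fold change 1.42, SE 0.10), followed by Ifit2 (1.35), Ifi204 (1.04), Cmpk2 (0.96) and Lgals3bp (0.71). Cmpk2 is the neighbour of Rsad2 and supplies its nucleotide substrate. Slfn8 (-1.37), Ly6e (-1.35, SE 0.07), Epsti1 (-1.11), Ifi27l2a (-0.94), Phf11b (-0.42) and Sp100 (-0.27) were lower in LSEC-like cells, with Ly6e at 125 to 449 CPM against 318 to 1149 CPM. Of 25 pathway genes, 13 were higher in LSEC-like cells, led by Irf8 (1.33), Jak1 (1.07), Socs1 (0.82), Ifngr2 (0.67) and Jak2 (0.64). Cgas (0.52), Tlr3 (0.42), Mavs (0.41), Pias1 (0.32), Unc93b1 (0.27), Tbk1 (0.26) and Irf1 (0.26) were among the others. Ptpn6 (-1.00), Irf5 (-0.80) and Ifngr1 (-0.22) were lower.

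Nonclassical and classical monocyte-like cells could be compared in only 2 libraries, D9 and D25 of protocol A, which leaves 1 residual degree of freedom. The p-values of this fit thus rest mostly on a spread pooled over genes, and not on that between the 2 libraries. Of 31 members, Ly6e was higher in nonclassical cells, at 1773 and 1290 CPM against 1045 and 748 CPM (log2 fold change 0.76, SE 0.21, edgeR adjusted p = 0.0102). Isg15 was lower, at 16.2 and 0 CPM against 90.8 and 7.36 CPM (-2.60, SE 0.83, edgeR adjusted p = 0.0333), as were Slfn5 (-2.27, SE 0.57, edgeR adjusted p = 0.00228) and Ifi27l2a (-0.89, SE 0.25, edgeR adjusted p = 0.0103). The nonclassical cells numbered only 34 and 29, so their Isg15 values rest on few UMIs. Of 6791 genes, 2.99% were higher and 3.67% lower, and DESeq2 called 0 members in either direction, against 2.47% higher and 2.57% lower of the 2183 genes to which it gave an adjusted p. Of 24 pathway genes 0 were called, with 4 higher and 2 lower at an unadjusted p under 0.05 (7.82% and 9.90% of all genes) and 0 by DESeq2.

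After withdrawal of DDC, member levels were compared with those of D19 protocol B, the library of the same protocol with the same duration of diet. Each is 1 library, so no test was made, and the 95% exact Poisson intervals cover counting error only. The summed share was higher in STOP in all 13 cell types with 20 cells in both. The ratio of STOP to D19 protocol B was 3.10 (2.85 to 3.37) in neutrophil-like, 2.58 (2.5 to 2.66) in KC-like, 2.36 (2.22 to 2.5) in large-vessel endothelial-like, 2.33 (2.28 to 2.39) in other macrophage-like and 2.30 (2.24 to 2.37) in LSEC-like cells. It was 1.90 (1.63 to 2.23) in hepatocyte-like and 1.51 (1.48 to 1.53) in BEC-like cells. The dendritic and lymphoid types lay lower, from 1.47 (1.44 to 1.51) in cDC1-like to 1.25 (1.20 to 1.30) in NK-like cells. D19 protocol B had the lowest share of all DDC libraries in KC-like cells, at 0.364%, where D25 protocol B had 0.507%. In LSEC-like cells they had 0.271% and 0.427%. In cDC1-like and mature DC-like cells D25 protocol B was lower than D19 protocol B.

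Set beside the whole series, the STOP share lay above all progression libraries in 14 of 15 cell types and above all DDC libraries in 9 of 15. It reached or passed the lower of both D0 libraries in 8 of 9 types. KC-like cells had 0.937% in STOP, LSEC-like cells 0.624%, neutrophil-like cells 0.453% and pDC-like cells 0.998%. The exception was the cDC2-like type, with 0.383% in STOP and 0.406% and 0.523% at D0. The member share of free RNA was 0.425% in STOP and 0.305% in D19 protocol B. What part of the difference this makes was not tested.

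**Figure D5:**
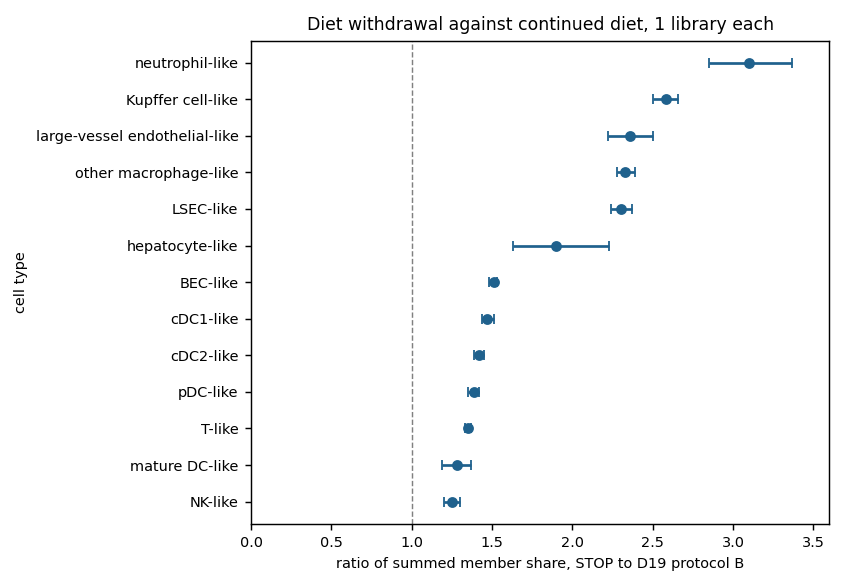
Points give the ratio of the summed member share in STOP to that in D19 protocol B (horizontal axis, dashed line at 1) for 13 cell types (vertical axis), with bars for the 95% exact Poisson interval, which covers counting error only. All 13 ratios lie above 1, from 1.25 in NK-like to 3.10 in neutrophil-like cells.

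How many members had a higher level in STOP varied between cell types, and so did the number of all genes. The interval of the ratio lay above 1 for 38 of 45 members in KC-like cells, against 21% of all genes counted in the same way, those with over 3 UMIs in either library. It did so for 39 of 45 in other macrophage-like (18.2% of all genes), 37 of 44 in LSEC-like (23.2%), 34 of 45 in BEC-like (23.3%), 26 of 40 in large-vessel endothelial-like (13.8%) and 22 of 36 in neutrophil-like cells (9.18%). The interval lay below 1 for 0 members in each of these 6 types, against 7.89%, 10.1%, 12.6%, 23.7%, 7.74% and 28.9% of all genes in the same order. In cDC1-like cells it lay above 1 for 27 of 45 members and below for 5 (18.8% and 16.4% of all genes), and in cDC2-like cells for 25 and 5 (30.3% and 15%). Fewer than 50% of the members had an interval above 1 in the remaining types. These were 17 of 45 in T-like (23.0%), 15 of 45 in pDC-like (11.2%), 12 of 36 in NK-like (15.4%), 7 of 36 in mature DC-like (7.21%) and 4 of 41 in hepatocyte-like cells (5.39%). The interval lay below 1 for 2 members in T-like (20.3% of all genes), 0 in pDC-like (8.82%), 0 in NK-like (12.1%), 3 in mature DC-like (9.56%) and 1 in hepatocyte-like cells (7.63%).

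Isg15 stood at 208 CPM in STOP and 27.5 CPM in D19 protocol B in KC-like cells (ratio 7.56, interval 5.51 to 10.6), at 369 and 90.7 CPM in LSEC-like cells (4.07, 3.50 to 4.74) and at 484 and 35.2 CPM in neutrophil-like cells (13.8, 8.44 to 24.0). Ifit1 stood at 145 and 11.4 CPM in LSEC-like cells (12.8, 8.55 to 19.9) and at 48.2 and 5.26 CPM in KC-like cells (9.15, 4.48 to 21.1). Ifit3 in LSEC-like cells stood at 163 and 12.3 CPM (13.2, 9.0 to 20.2), above both D0 libraries.

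Rsad2 in neutrophil-like cells had 181 UMIs in STOP and 1 in D19 protocol B, and Ifit1 had 31 and 0. Ly6e was not carried along in these cells, with a ratio of 1.05 (0.887 to 1.25). After thinning, the 10% of neutrophil-like cells richest in members held 42.4% of the members' UMIs in STOP and 29.1% in D19 protocol B. Median member UMIs per neutrophil-like cell were 4 and 2. Irf7 stood at 389 and 81.9 CPM in KC-like cells (4.75, 3.92 to 5.79), with 395 CPM in D0 protocol A. The D0 and DDC values of Irf7 overlapped in KC-like cells. In pDC-like cells Irf7 stood at 159 and 96.4 CPM (1.65, 1.35 to 2.02), below both D0 libraries. Usp18 stayed low, at 3.57 CPM in KC-like and 2.34 CPM in LSEC-like cells of STOP.

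The members differed in how closely they followed each other across libraries. Log2 CPM, centred within cell type, were correlated with the mean of the members over 144 points from 14 cell types, a description in which points of 1 library share cells of 1 preparation and its free RNA. Among the members, Trim30a (r = 0.76), Ifit1 (0.75) and Oasl2 (0.75) were closest to the mean of the others, and Epsti1 (0.05), Parp9 (0.12), Eif2ak2 (0.18) and Dhx58 (0.21) were farthest from it. The abundant Bst2 (0.24) and Lgals3bp (0.23) also followed the others little. Of 6282 other genes with a mean of at least 20 CPM, those most alike were Samd9l (0.70), Hspa1b (0.68), Aass (0.66), Bag3 (0.63), Hspa1a (0.63), Tapbp (0.62), Iigp1 (0.62), Inppl1 (0.62), H2-K1 (0.61) and Gbp3 (0.60). Samd9l, Iigp1 and Gbp3 are known interferon-induced genes and Tapbp and H2-K1 belong to antigen presentation by class I molecules. Hspa1b, Hspa1a and Bag3 belong to the heat-shock response, whose levels at D0 are given above.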

How the data were processed

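Droplet scRNA-seq libraries (3′ tags with UMIs) of sorted mouse liver cells were measured in 12 atlas samples and 1 STOP sample. The deposited matrices hold whole UMI counts per gene and barcode, which the authors obtained with kallisto on GRCm38 per the labels' processing notes and did not normalise. Total counts per library and median UMIs per cell (3350 to 12013) set the precision, and levels near 0 CPM rest on few UMIs.

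Barcodes with at least 1500 UMIs, the threshold of the study, were kept (Scrublet calls were made but not removed, and 9 libraries used the expected doublet rate). Cells were clustered with scanpy 1.11.5 and igraph 0.11.9 (Python 3.11.15) without members or other interferon-induced genes, 12 of 76 clusters were split again (168 in the end), and clusters were named where over 50% of at least 3 markers were detected (10% of cells, 2-fold over other cells) and no other type led. This rule was revised after clusters were seen. The members, the lists and the cell types named were chosen with earlier results of these data known.

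UMIs were summed per cell type and library with at least 20 cells and tested with edgeR 4.0.16 (TMM, filterByExpr, quasi-likelihood; limma 3.58.1, R 4.3.3) with Benjamini-Hochberg adjustment over all genes of a cell type. Terms were isolation protocol and stage (DDC against D0, progression against onset, protocol B against A), or library and cell type. Standard errors were taken as the absolute log2 fold change over the square root of F. Summed shares and STOP against D19 protocol B had no test. Members were named by rule: those called in at least 2 types, up to 3 with the largest change per type and direction, the 3 with the highest CPM per type, Isg15, Ifit1, Ifit3, Rsad2, Irf7 and Usp18, each called pathway gene (except an item that is not reported here), and the 10 other genes most correlated with the members. Others are named where a count covers them, after their values were seen. Alternatives were DESeq2 1.42.0, no low-count filter, 3000 UMIs per cell, doublets removed, 50 cells, plain totals, diet day as a factor and each library left out. The diet, stage and protocol fits of LSEC-like and pDC-like cells and the pDC-like against cDC2-like fit were tested on simulated data; the other fits were not. The replicate number of a library is its isolation protocol, which is a term of the fit.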

Additional observations from a re-analysis of the deposited data

Results flagged for a closer look

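Of 54 groups of 4 to 10 libraries that were examined by Dixon's test, 2 held a library far from the others. Chance gives such a value in about 1 in 20 groups. The summed member share of KC-like cells at onset was lowest in D5 protocol B, at 0.498%, while the other 3 onset libraries lay at 0.626% to 0.636% (gap over range 0.928). Herc6 in other macrophage-like cells was highest among the 6 progression libraries in D9 protocol B, at 8.96 CPM, while the others lay at 5.99 to 7.03 CPM (gap over range 0.648).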

How the results depend on the processing

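No member called in a test changed direction in any alternative that was run. The NK-like ratio of DDC to D0 shares, which was not tested, moved from 1.05 to 0.865 without Ly6e, Bst2 and Ifi27l2a. The share of all genes called is given above for the main fits, by DESeq2 and for some libraries left out. It is not given for the other alternatives, so their counts below cannot be read as a result about the members. The number of members lower under DDC than at D0 was 16 (1.08% of all pairs). It was 32 by DESeq2 (2.40%), 60 without a low-count filter, 9 with 50 cells and 34 with diet day as a factor. Within protocol A alone it was 4 and within protocol B alone 23 (both added after seeing the data). Each of these has 1 D0 library, whose spread is assumed to be that of the other stages. Leaving out each library gave 2 to 32. The number higher was 1 by DESeq2 and 0 to 0 with a library left out. For progression against onset, 2 were lower (0.0246% of all pairs). This was 19 by DESeq2 (0.195%), 55 without a filter, 0 with 3000 UMIs and 0 with 50 cells. It was 13 with day as a factor, 1 in protocol A and 0 in protocol B. Leaving out each library gave 0 to 21. The number higher was 1 in protocol A and 0 to 0 with a library left out.

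For protocol B against A, 18 were lower (2.82% of all pairs). This was 30 by DESeq2 (4.16%), 52 without a filter and 6 with 3000 UMIs. It was 10 without doublets, 5 with 50 cells and 4 to 30 with a library left out. As above, the share of all genes called is not given for the other alternatives. The 7 higher were 12 without a filter, 4 with 3000 UMIs, 2 without doublets, 4 by plain totals, 4 with 50 cells, 3 with day as a factor, which pairs the protocols of a day, and 3 to 7 with a library left out. For monocytes, 3 lower were 0 by DESeq2 and 1 with 3000 UMIs, and 1 higher was 0 by DESeq2 and 0 without a filter; leaving out a library was not possible with 2 libraries. The counts of pDC-like against cDC2-like (7 to 10 higher, 23 to 26 lower) and LSEC-like against large-vessel endothelial-like (10 to 11 and 5 to 8) changed little. The ratio of DDC to D0 shares was 0.836 in T-like cells as a median over cells. Without doublets the STOP ratio was 1.55 in BEC-like, 2.43 in other macrophage-like and 1.35 in pDC-like cells. The cause of these changes was not tested. D0 has only 2 libraries, of different protocols, and members of few UMIs, such as Usp18, carry the largest counting error.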

Other observations

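The cells of clusters that met no naming rule also held members. Their summed member share was 0.49% in D0 protocol A and 0.44% in D0 protocol B. It ran from 0.196% in D25 protocol A to 0.473% in D3 protocol B under DDC, and was 0.445% in STOP. The D3 protocol B value lay between the D0 values.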
